A study of Mus with 6 samples.

Results

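The genes described here are 9 markers of interneurons born in the ganglionic eminences, the swellings of the ventral forebrain that supply most inhibitory neurons of the cortex and amygdala. They are the transcription factors Lhx6, Dlx1, Dlx2, Dlx5, Sox6, Prox1, Nr2f2 and Satb1 and the receptor gene Erbb4. They were taken by gene name from a deposited table of 54532 genes, and all 9 were found. Gene expression was measured by RNA sequencing of the basolateral amygdala of mice labelled female. A wild-type group (WT, 3 libraries) was compared with a group labelled as Cntnap4 knockout (KO, 3 libraries). The labels do not give the strain, the age or the knockout allele, and name no treatment. They number the libraries 1 to 3 in each group, without stating that each came from a separate animal, so p-values measure only the spread between these libraries, which may be technical. Cntnap4, the targeted gene, encodes a contactin-associated membrane protein related to the neurexins. Its level was 3.53, 3.90 and 2.15 FPKM (fragments per kilobase of gene length, scaled by library size) in WT and 1.08, 1.19 and 1.28 in KO, lower in every KO library.

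Interneurons of the forebrain are generated in the ventral telencephalon, where Dlx homeobox genes switch progenitors to a GABA-producing fate. Cells of the medial ganglionic eminence then use Lhx6, Sox6 and Satb1 and become parvalbumin and somatostatin interneurons. Cells of the caudal ganglionic eminence use Prox1 and Nr2f2 and become, among others, the Vip and Reln classes. Erbb4, the receptor for neuregulins, stays on at synapses of mature interneurons. Several of these genes are also used by other cells: Sox6 by oligodendrocyte precursors, Prox1 by granule cells of the dentate gyrus, Nr2f2 by vascular cells and other amygdala neurons, Satb1 by other neurons, and Dlx genes by striatal neurons. The libraries were of bulk tissue, so fewer cells of a type and less RNA per cell cannot be told apart.

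The 6 libraries held 15933029 to 17789798 reads recovered from the FPKM values. Genes of the basolateral amygdala were present in every library, with Slc17a7, the vesicular glutamate transporter, at 201 to 364 FPKM and Rspo2 at 2.03 to 4.12. Libraries of the same group also differed in genes of neighbouring regions. The summed level of 16 striatal and intercalated-cell markers was 1092 FPKM in WT3 and 468 in KO3, against 93.6 to 244 in the other 4 libraries. The summed level of 10 hypothalamic peptide genes was 36.3 in WT1 and 26.3 in WT2, against 2.22 to 4.94 in the other 4.

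No lineage gene differed between the groups past the threshold (limma, Benjamini-Hochberg adjusted p under 0.05 over 13087 genes with a mean of at least 1 FPKM). All 9 passed that filter. The count called was 0 of 9, against 1 gene of all those tested, Rps27a, which is 0.00764% of them, and 0 genes with the replicate block. Leaving out a library also changed the count over all genes: it was 9 without WT3 and 0 without any other single library, while the count of lineage genes was 0 each time. The targeted gene Cntnap4 was not called in the main fit either (limma adjusted p = 0.302). All its KO values lay below all WT values, as in 10.1% of all genes tested. It kept 111, 130 and 132 recovered reads in the KO libraries. At an unadjusted p under 0.05 there were 2 lineage genes, Nr2f2 (lower in KO) and Satb1 (higher), where 14.3% of all genes tested were under it. With the replicate block there were 3, Erbb4 (higher, unadjusted p = 0.0371 in limma) being the third, against 17.8% of all genes tested. Limma's voom on the recovered reads likewise called 0 and had 2 under an unadjusted 0.05, against 14.4% of all genes tested. Between libraries of the same number, Satb1 and Erbb4 were higher and Nr2f2, Dlx5 and Sox6 lower in KO in 3 of 3 pairs, a uniform direction that 44.9% of all genes tested had. The median log2 fold change, KO minus WT on the log2(FPKM + 1) scale, was 0.0058 over the 9 genes and 0.0076 over all genes tested. In 1 of 9 genes, Satb1, all KO values lay on one side of all WT values, against 22.0% of all genes tested. With 3 libraries a group, the smallest exact permutation p for any gene is 0.1.

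**Figure D1:**
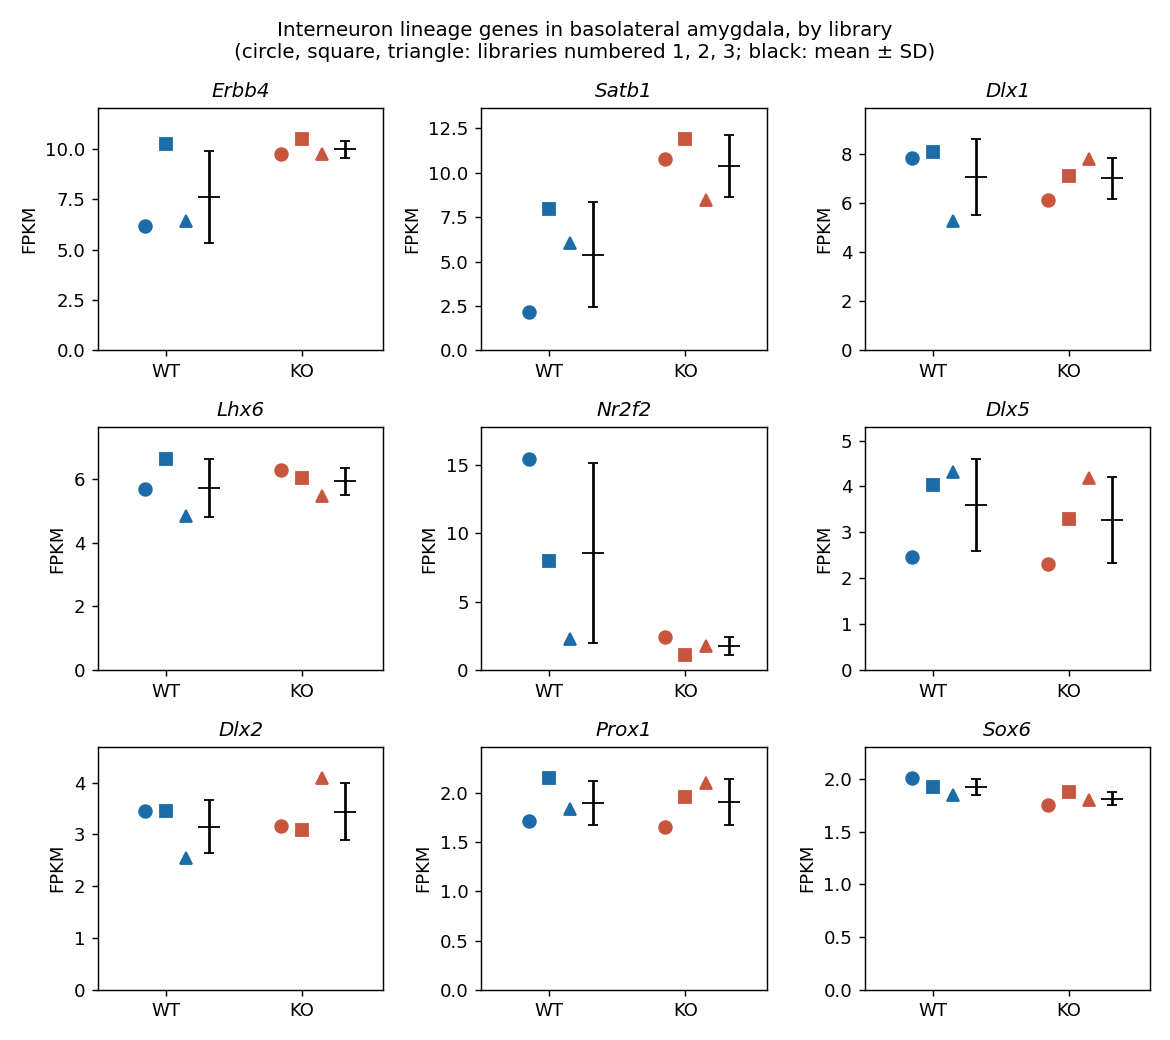
Level of each of the 9 lineage genes (vertical axis, FPKM, from 0) in the 3 WT and 3 KO libraries. Symbols mark the libraries numbered 1, 2 and 3, and black bars the mean and SD; the groups are apart only for Satb1, and Nr2f2 spans 2.28 to 15.5 FPKM in WT.

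The order of the levels, by mean FPKM over the 6 libraries, was Erbb4 (8.80), Satb1 (7.88), Dlx1 (7.03), Lhx6 (5.83), Nr2f2 (5.16), Dlx5 (3.43), Dlx2 (3.30), Prox1 (1.91) and Sox6 (1.87). Between neighbours in that order the ranges over libraries overlapped, except between Dlx2 and Prox1, where Dlx2 was higher in 6 of 6 libraries. Erbb4 was thus not separable from Satb1, nor Prox1 from Sox6, where each was higher in 3 of 6 libraries. By mean FPKM they ranked from 5251 (Erbb4) to 11181 (Sox6) among the 13087 genes tested. The reads behind them ranged from a mean of 131 per library for Dlx5 to 2514 for Satb1.

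The Dlx homeobox genes, which stand at the head of this lineage, had close mean levels in the groups. Dlx1 was at 7.83, 8.07 and 5.27 FPKM in WT against 6.13, 7.10 and 7.81 in KO. WT3 had the lowest value, and the KO values lay inside the WT range. The log2 fold change was 0.0058 (SE 0.17, 95% interval -0.38 to 0.40, limma adjusted p = 0.991). Dlx2 was at 3.45, 3.45 and 2.55 in WT against 3.16, 3.09 and 4.08 in KO, again lowest in WT3. Its log2 fold change was 0.10 (SE 0.14, 95% interval -0.24 to 0.44). The sign of the Dlx1 value turned under 7 of 16 alternative settings, among them a common sum per library (-0.018), and that of Dlx2 under 4.

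Dlx1 (ENSMUSG00000041911, chromosome 2 from 71528113 to 71533981, plus strand) and Dlx2 (ENSMUSG00000023391, chromosome 2 from 71543408 to 71546754, minus strand) are neighbours that face each other across 9426 bases. The table's positions are printed as deposited, and the submitters' processing notes name GRCm38 and mm10. Across libraries the neighbours moved together, with a Dlx1 to Dlx2 ratio of 2.27, 2.34 and 2.07 in WT against 1.94, 2.30 and 1.91 in KO. The gene Dlx1as, on the other strand over Dlx1, was at 0.37 to 1.45 FPKM. The sources used here do not give the use of strand in counting, so reads of an overlapping antisense pair cannot be told apart.

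Dlx5 (ENSMUSG00000029755, chromosome 6 from 6877805 to 6882085) was at 2.46, 4.03 and 4.32 FPKM in WT against 2.31, 3.29 and 4.18 in KO. In both groups the library numbered 1 was lowest and the library numbered 3 highest. The log2 fold change was -0.11 (SE 0.22, 95% interval -0.63 to 0.41), and it was 0.060 without KO1 and 0.0081 without WT3. Its neighbour Dlx6, which lies 9236 bases away on the other strand, was at 2.43, 2.23 and 6.01 in WT against 1.79, 2.09 and 3.65 in KO. Dlx6os1, the noncoding transcript of the same locus, was at 2.49, 2.73 and 3.30 in WT against 2.17, 2.88 and 4.15 in KO. All 3 transcripts of the locus were thus highest in the library numbered 3 of each group, the libraries in which the striatal markers were high. The part of those markers in this pattern was not tested.

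Lhx6, the LIM homeobox factor that keeps medial ganglionic eminence identity, varied less in KO than in WT. On the log2 scale its SD was 0.19 in WT against 0.089 in KO, and 42.9% and 70.8% of all genes tested had a larger one. Lhx6 (ENSMUSG00000026890, chromosome 2 from 36081953 to 36105408) was at 5.70, 6.64 and 4.83 FPKM in WT against 6.30, 6.02 and 5.47 in KO. The groups overlapped, with the lowest and the highest value both in WT, and the log2 fold change was 0.05 (SE 0.12, 95% interval -0.24 to 0.34, limma adjusted p = 0.857), and it was -0.047 without WT3.

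Sox6, an HMG-box factor that acts after Lhx6 in the positioning and maturation of these cells, was the steadiest. Sox6 (ENSMUSG00000051910, chromosome 7 from 115470872 to 116038796) was at 2.00, 1.92 and 1.85 FPKM in WT against 1.76, 1.88 and 1.80 in KO. The highest KO value lay above the lowest WT value, and the log2 fold change was -0.058 (SE 0.11, 95% interval -0.31 to 0.19), negative under all 16 alternatives. On the log2 scale its SD was 0.038 in WT against 0.032 in KO, and 96.0% and 95.2% of all genes tested had a larger one. Of 14 oligodendrocyte precursor markers, 13 had a lower mean in KO, and 0 were past the adjusted threshold. At an unadjusted p under 0.05 in limma 8 were lower and 1 higher, against 7.25% and 7.05% of all genes tested. Their median log2 fold change was -0.38, and their summed level was 145 to 182 in WT against 124 to 129 in KO. The share of Sox6 reads from such cells was not tested.

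Satb1, a chromatin organizer needed for the maturation of somatostatin interneurons, had all its KO values above its WT values, without passing the test. Satb1 (ENSMUSG00000023927, chromosome 17 from 51736187 to 51833290) was at 2.15, 7.94 and 6.06 FPKM in WT against 10.8, 11.9 and 8.47 in KO. The groups did not overlap, but WT2 and KO3 differed by little and WT1 stood far below the rest. The means were 5.39 ± 2.95 (SD, n = 3) and 10.4 ± 1.75 (n = 3), a ratio of 1.93. The log2 fold change was 0.95 (SE 0.36, 95% interval 0.09 to 1.81, limma adjusted p = 0.328), with an exact permutation p of 0.1, the smallest possible. Without WT1 it was 0.51 and without WT2 1.26, and the adjusted p over 16 alternatives was 0.191 to 0.685. Within WT the highest Satb1 value was 3.69 times the lowest, and only 2.52% of all genes tested had a larger log2 SD in WT.

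**Figure D2:**
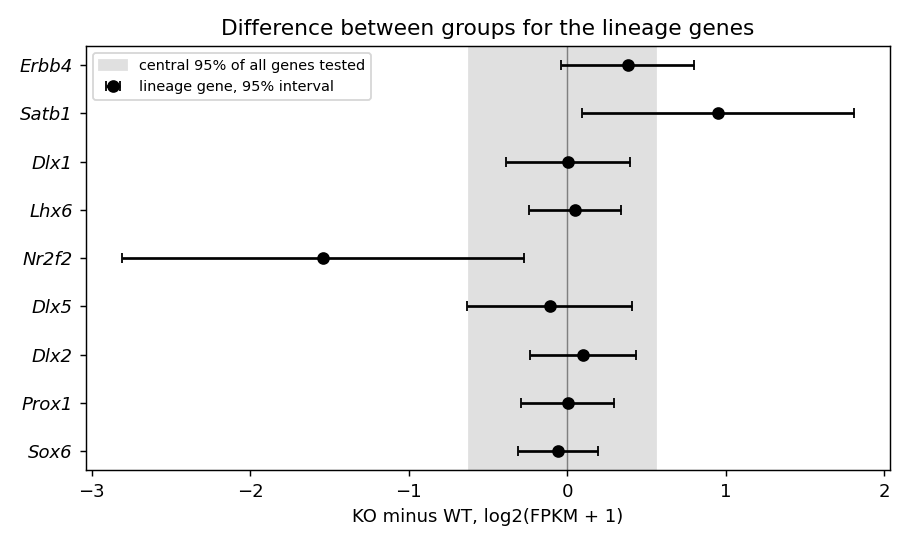
Difference between the groups (horizontal axis, KO minus WT in log2(FPKM + 1)) for the 9 lineage genes, with 95% intervals from limma; the grey band is the central 95% of all genes tested, -0.62 to 0.56. Nr2f2 (-1.54) and Satb1 (0.95) lie outside the band with wide intervals, and the other 7 lie inside it.

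Prox1, the homeobox factor of caudal ganglionic eminence interneurons, had nearly equal means. Prox1 (ENSMUSG00000010175, chromosome 1 from 190118035 to 190170714) was at 1.72, 2.15 and 1.84 FPKM in WT against 1.65, 1.97 and 2.10 in KO. The ranges overlapped almost completely, and the log2 fold change was 0.003 (SE 0.12, 95% interval -0.29 to 0.30, limma adjusted p = 0.994), and its sign turned under 8 of 16 alternatives, for example to -0.013 with a common sum per library. The antisense transcript Prox1os, which overlaps the start of the gene on the other strand, was at 0.84, 0.75 and 1.22 in WT against 0.59, 2.02 and 1.39 in KO. Of 7 markers of dentate granule cells 4 were tested, with 2 positive and 2 negative log2 fold changes and a median of -0.073. C1ql2 was at 9.86, 3.99 and 0.27 in WT against 1.83, 2.05 and 0.21 in KO, and Stxbp6 at 14.8, 21.2 and 11.8 against 26.8, 24.2 and 20.3. The summed level of the list was 16.8 to 29.4 in WT against 24.7 to 32.5 in KO, and the part of such cells in the Prox1 values was not tested.

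Nr2f2, also called COUP-TFII, the nuclear receptor of the caudal eminence, varied most. Nr2f2 (ENSMUSG00000030551, chromosome 7 from 70351944 to 70366735) was at 15.5, 7.96 and 2.28 FPKM in WT against 2.40, 1.07 and 1.79 in KO. WT1 and WT2 were high, and WT3 lay inside the KO range, so the groups overlapped. The reads behind these values were 2494, 1101 and 332 in WT against 340, 160 and 255 in KO. The means were 8.57 ± 6.61 (SD, n = 3) and 1.75 ± 0.67 (n = 3), a ratio of 0.205. The log2 fold change was -1.54 (SE 0.54, 95% interval -2.81 to -0.27, limma adjusted p = 0.316), with an exact permutation p of 0.2. It was -1.01 without WT1 and -2.17 without WT3, and the adjusted p over 16 alternatives was 0.0946 to 0.685. Within WT the highest value was 6.78 times the lowest, and 0.772% of all genes tested had a larger log2 SD in WT.

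The paralogue Nr2f1, COUP-TFI, was at 29.3, 25.0 and 20.4 FPKM in WT against 31.9, 16.8 and 20.5 in KO. Within each group its libraries stood in the same order as for Nr2f2. Its spread was smaller, and its highest value was in KO1. The ratio of Nr2f2 to Nr2f1 was 0.53, 0.32 and 0.11 in WT against 0.075, 0.063 and 0.087 in KO. Prox1, the other caudal eminence factor, did not share the pattern of Nr2f2: the ratio of Nr2f2 to Prox1 was 8.99, 3.71 and 1.24 in WT against 1.45, 0.54 and 0.85 in KO. Markers of caudal eminence classes, chosen after their values were seen, did not share 1 pattern. Vip was at 9.71, 17.5 and 12.7 in WT against 17.6, 18.2 and 15.4 in KO, lowest in WT1. Reln was at 4.41, 5.21 and 3.06 against 3.80, 2.97 and 3.49, and Calb2, the calretinin gene, at 28.5, 18.7 and 3.64 against 6.29, 3.61 and 13.9, both highest in WT1 and WT2 as Nr2f2 was.

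Some genes of neighbouring nuclei stood high in the same WT libraries as Nr2f2. Trh, the hypothalamic releasing hormone gene, was at 18.7, 21.6 and 1.28 FPKM in WT against 0.31, 0.79 and 2.02 in KO. Of the 10 central amygdala markers, Dlk1 was at 10.3, 5.07 and 0.32 in WT against 0.25, 0.39 and 0.89 in KO, and Nts, the neurotensin gene, at 9.72, 3.45 and 0.66 and 0.44, 0.23 and 1.22. Both were chosen after their values were seen. The summed level of the central amygdala list, which Sst dominates, was 299 to 499.6 in WT against 235 to 278 in KO. Its median log2 fold change was -0.40, with 7 of 10 negative. The hypothalamic list had 8 of 10 genes below the filter and Kiss1 at 0 in all libraries. The summed level of 14 endothelial and mural markers, another place of Nr2f2 expression, was 154 to 261 in WT, highest in WT3, and 136 to 184 in KO. That of 10 meningeal fibroblast markers was 34.8 to 76.5 in WT, highest in WT1, and 14.7 to 36.1 in KO. All 8 tested genes of that list had a negative log2 fold change, and 0 passed the adjusted threshold. The part of any of these cell types in the Nr2f2 values was not tested.

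Satb1 and Nr2f2 tended to run in opposite directions (Pearson r = -0.82, n = 6), but not in every library. In WT2 both lay above their mean FPKM over the 6 libraries, and in WT3 both lay below it. The ratio of Satb1 to Nr2f2, chosen after the values were seen, was 0.14, 1.00 and 2.66 in WT against 4.49, 11.1 and 4.72 in KO. WT1 had the lowest Satb1 and the highest Nr2f2, and KO2 the reverse. Of the whole list of 15 excitatory neuron markers, 10 had a higher mean in KO and 5 a lower one, with a median log2 fold change of 0.07. In 3 all KO values lay above all WT values and in 1 below, against 11.9% and 10.1% of all genes tested. At an unadjusted p under 0.05 limma had 4 (26.7%), against 14.3% of all genes tested, and 0 passed the adjusted threshold. The summed level overlapped between groups, at 1399 to 2050.4 in WT against 1620.5 to 2028.5 in KO.

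**Figure D3:**
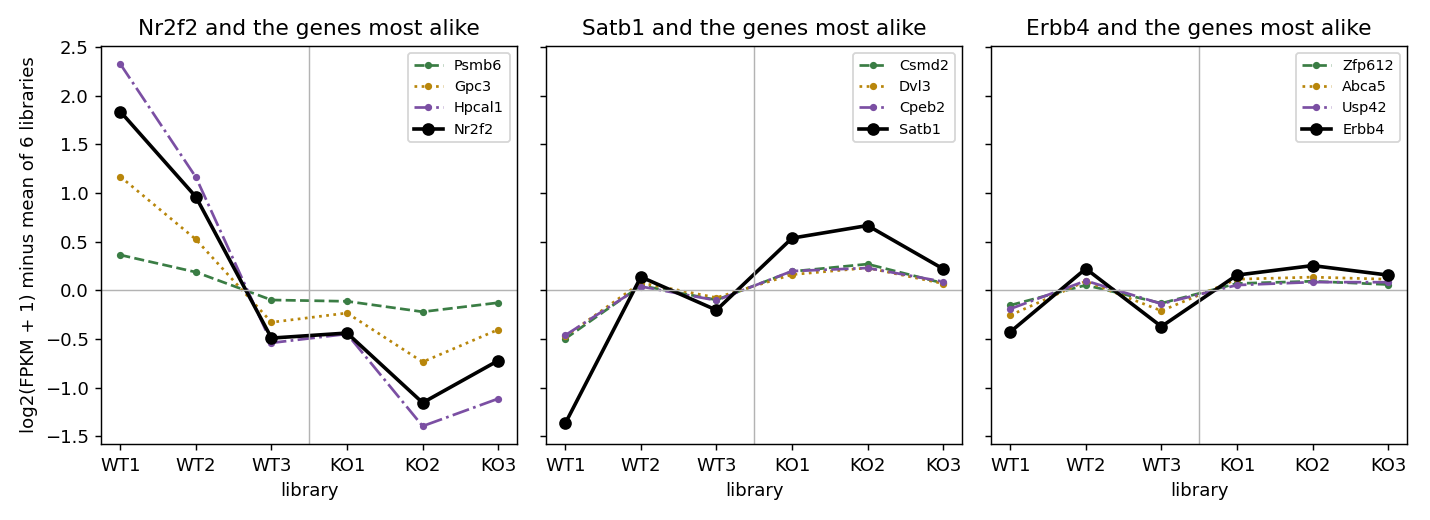
Deviation of each library from the mean of 6 libraries (vertical axis, log2(FPKM + 1)) for Nr2f2, Satb1 and Erbb4 (black) and the 3 genes most alike in pattern to each; lines only join libraries and imply no order. Nr2f2 is high in WT1 and WT2 alone, Satb1 is lowest in WT1, and Erbb4 is low in WT1 and WT3.

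By the fixed rule, the 3 named genes most alike to each lineage gene were those with the highest Pearson correlation over the 6 libraries among 11687 candidates. The values are descriptions: the 6 points share libraries and groups, and even for Prox1, where the values were lowest, the third gene reached 0.945. Nr2f2 was nearest to Psmb6, a proteasome subunit, to Gpc3, a cell surface proteoglycan, and to Hpcal1, a neuronal calcium sensor (r = 0.997 to 0.998, n = 6). Hpcal1 was at 153, 68.0 and 20.2 FPKM in WT against 21.6, 10.7 and 13.2 in KO, and Gpc3 at 4.99, 2.83 and 1.12 and 1.27, 0.60 and 1.02. Satb1 was nearest to Csmd2, Dvl3 and Cpeb2, and Erbb4 to Zfp612, Abca5 and Usp42. These followed the direction of Satb1 and Erbb4 with smaller amplitude.

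Erbb4 encodes the tyrosine kinase receptor through which neuregulins act on interneurons. Erbb4 (ENSMUSG00000062209, chromosome 1 from 68032186 to 69108059) was at 6.16, 10.2 and 6.44 FPKM in WT against 9.74, 10.5 and 9.74 in KO. WT1 and WT3 were low and WT2 lay inside the KO range. The means were 7.61 ± 2.28 (SD, n = 3) and 9.99 ± 0.43 (n = 3), a ratio of 1.31. The log2 fold change was 0.38 (SE 0.18, 95% interval -0.035 to 0.80, limma adjusted p = 0.372), with an exact permutation p of 0.3. It was 0.59 without WT2 and 0.26 without WT1, and the adjusted p over 16 alternatives was 0.246 to 0.694. Its log2 SD was 0.36 in WT against 0.056 in KO.

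Of 19 genes of ligands, co-receptors, sheddases and partners of Erbb4, 13 were tested and 0 passed in limma or in voom, with 1 (7.69%) and 0 at an unadjusted p under 0.05, where 14.3% and 14.4% of all genes tested were under it. The log2 fold change was positive in 8 of the 13 and negative in 5, with a median of 0.10. In 2 of the 13 all KO values lay above all WT values and in 1 below, against 11.9% and 10.1% of all genes tested. Among ligands, Nrg1 was at 1.11 ± 0.13 FPKM in WT against 1.36 ± 0.10 in KO with no overlap, and Nrg3, the most abundant neuregulin here, at 6.63 ± 0.70 and 8.01 ± 1.49. Nrg2 had the opposite sign, at 3.35 ± 0.75 and 2.57 ± 0.18, also with no overlap. Hbegf was at 5.53 ± 1.72 and 5.68 ± 3.70. Tgfa, a ligand of Egfr, was at 7.80 ± 6.02 and 5.73 ± 2.84, with 14.7 in WT3 and 9.01 in KO3.

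Among receptors, Egfr was at 1.47 ± 0.040 FPKM in WT against 1.34 ± 0.20 in KO, and Erbb3 at 1.43 ± 0.82 and 1.63 ± 0.33, while Erbb2 was below the filter. Of the membrane proteases that cut neuregulins or Erbb4, Adam10 was at 17.9 ± 0.60 and 21.2 ± 0.65 with no overlap, a log2 fold change of 0.23 (SE 0.086, limma adjusted p = 0.323). Adam17 was at 1.87 ± 0.24 and 1.93 ± 0.25, and Bace1 at 12.4 ± 1.80 and 13.2 ± 1.39. Of the intracellular partners, the scaffold Dlg4 was at 63.9 ± 7.90 and 53.5 ± 5.68, Erbin at 11.4 ± 5.004 and 13.3 ± 2.47, and the phosphatase Ptpn11 at 26.3 ± 5.80 and 29.2 ± 0.99.

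Of 43 other regulators of ganglionic eminence-derived neurons, 34 were tested and 0 passed in limma or voom. At an unadjusted p under 0.05 limma had 5 higher and 3 lower in KO, where 7.05% and 7.25% of all genes tested were under it. In both directions together these were 23.5%, against 14.3% of all genes tested. Voom had 11 in all (32.4%), against 14.4% of all genes tested. The signs were split, 18 positive and 16 negative, with a median of 0.05. In 4 all KO values lay above all WT values and in 2 below, against 11.9% and 10.1% of all genes tested. The early progenitor genes Gsx1, Gsx2, Nkx2-1 and Lhx8 were below the filter. Nkx2-1, which marks the medial eminence and the ventral forebrain, was at 0.64, 0.55 and 1.08 FPKM in WT against 0.043, 0.061 and 0.34 in KO.

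Of the 8 with the smallest p, 7 are described here. Esrrg, an orphan nuclear receptor, was at 1.80, 4.82 and 4.01 FPKM in WT against 7.64, 6.86 and 6.93 in KO, a log2 fold change of 0.91 (SE 0.26, limma adjusted p = 0.302), and like Satb1 was lowest in WT1. Tox was at 2.41 ± 0.53 and 3.99 ± 0.66, the RNA-binding protein Elavl2 at 9.40 ± 0.79 and 12.5 ± 0.49, and Zeb2, a zinc finger factor that directs migrating medial eminence cells, at 5.89 ± 1.12 and 8.14 ± 0.65, each with no overlap. Lower in mean were Bcl11b, a factor of striatal neurons and interneurons, at 18.4 ± 4.68 and 12.7 ± 1.69, Id4 at 30.2 ± 2.29 and 22.8 ± 5.03, and Npas3 at 2.35 ± 0.11 and 1.79 ± 0.19. The groups overlapped for Bcl11b but not for Id4 and Npas3. Bcl11b was highest in WT3, at 23.4, where the striatal markers were highest.

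**Figure D4:**
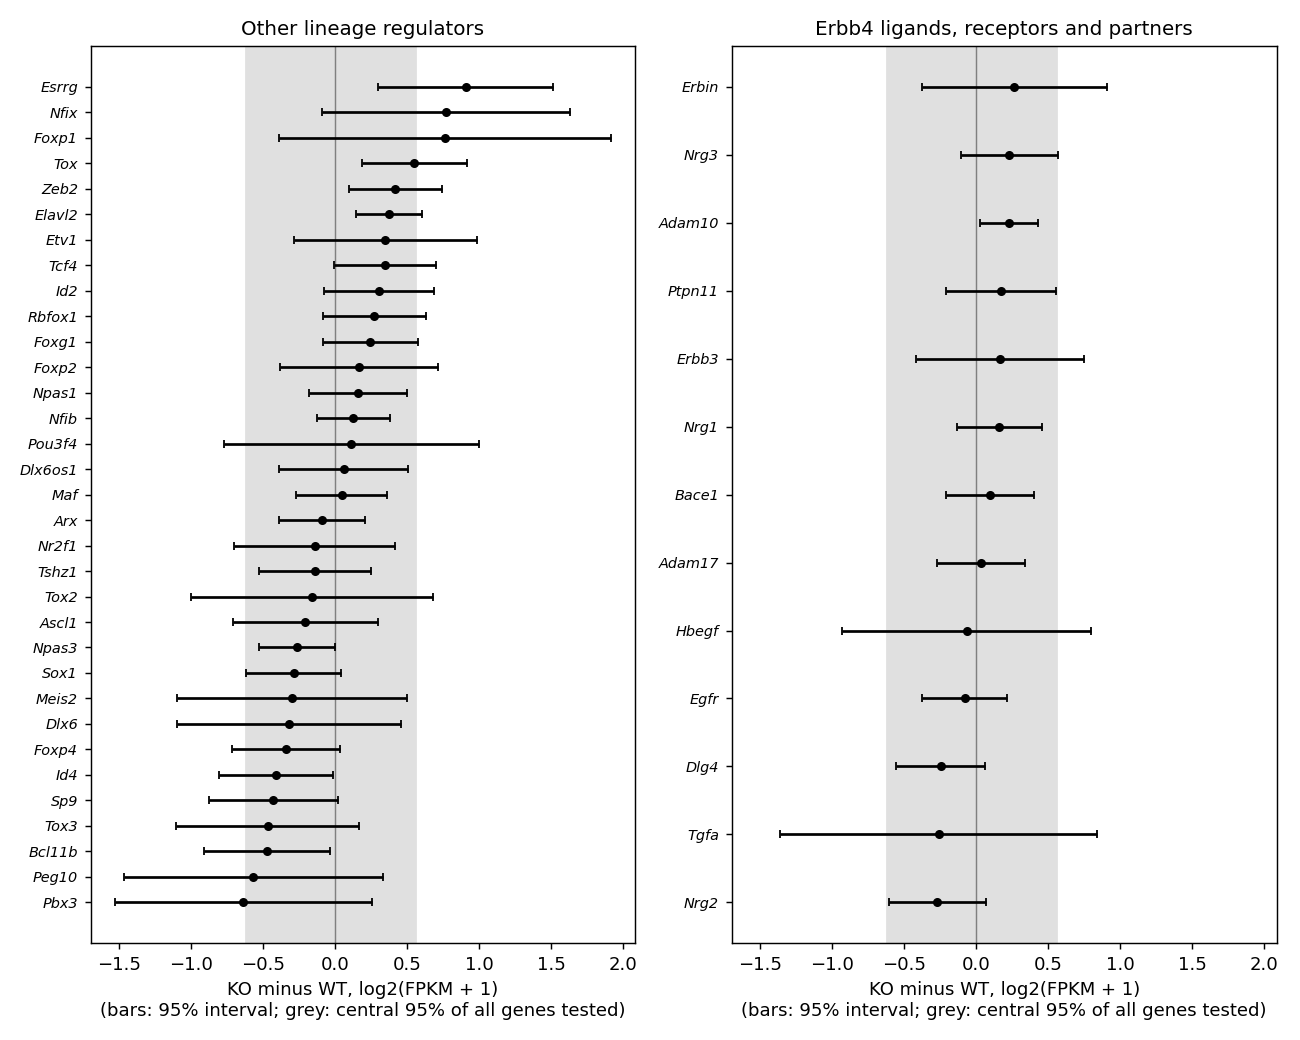
Difference between groups (horizontal axis, KO minus WT in log2(FPKM + 1), bars 95% intervals from limma) for 33 of the 34 tested lineage regulators (left) and the 13 tested genes of the Erbb4 pathway (right), ordered by value. Signs are split in both lists and the grey band is the central 95% of all genes tested.

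Among the 9 lineage genes themselves, Pearson correlations over the 6 libraries ranged from -0.82 (Satb1 with Nr2f2) to 0.85 (Erbb4 with Satb1), with a median of 0.22 over the 36 pairs. They are given as descriptions (n = 6), since all pairs share the same libraries and the 2 groups. Dlx1 and Dlx2 also reached 0.85, Dlx5 and Prox1 0.79, and Nr2f2 and Sox6 0.78. The medial eminence factors did not move as a block: Lhx6 and Sox6 had 0.07, Lhx6 and Satb1 0.33, and Satb1 and Sox6 -0.74. The caudal eminence factors Prox1 and Nr2f2 had -0.16.

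**Figure D5:**
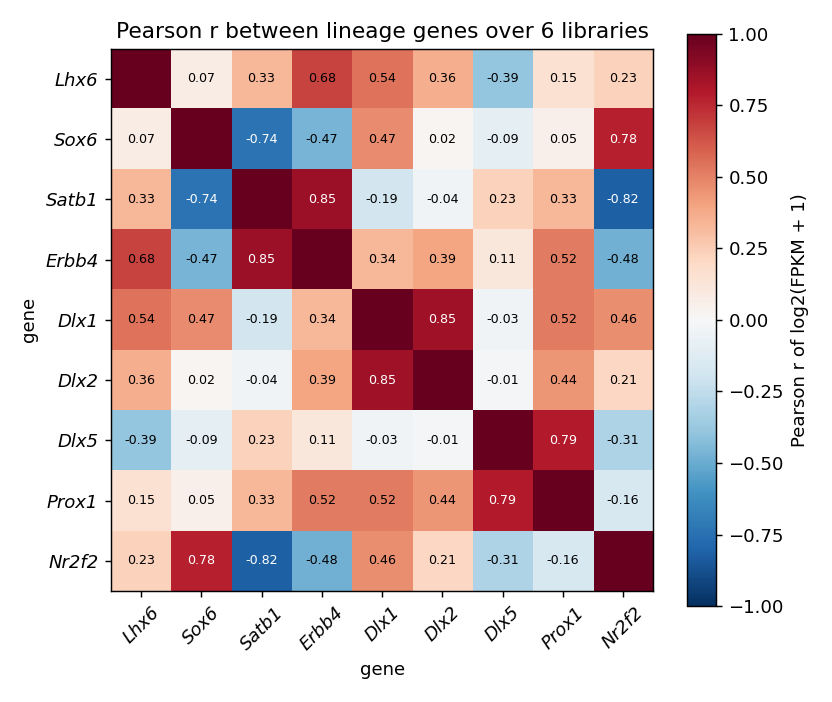
Pearson r of log2(FPKM + 1) between each pair of the 9 lineage genes (both axes) over the 6 libraries. The highest values are for Erbb4 with Satb1 and Dlx1 with Dlx2 (0.85 each), and the lowest for Satb1 with Nr2f2 (-0.82).

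The genes with which neurons make and move GABA were set beside these factors. Gad1, the larger GABA-synthesizing enzyme, was at 44.2, 49.6 and 51.9 FPKM in WT against 52.4, 53.3 and 60.7 in KO, with no overlap but a log2 fold change of 0.19 (SE 0.11, limma adjusted p = 0.450). Slc32a1, the vesicular GABA transporter, had the opposite sign at 49.5 ± 5.46 and 38.2 ± 4.27, also with no overlap. Of all genes tested, 11.9% had all KO values above all WT values and 10.1% below. Gad2 was at 42.0 ± 6.12 and 39.9 ± 5.36. None of the 4 genes of this list passed (0 in limma and in voom, 1 of 4 in each at an unadjusted p under 0.05, against 14.3% and 14.4% of all genes tested). The ratio of Lhx6 to Gad1 was 0.13, 0.13 and 0.093 in WT against 0.12, 0.11 and 0.090 in KO. It was lowest in the library numbered 3 of each group, where the striatal markers were high. The part of striatal cells in this ratio was not tested.

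Of the 27 tested subtype markers of interneurons, the log2 fold change was above 0 in 12 and below it in 15 (median -0.0076). In 2 of the 27 all KO values lay above all WT values and in 3 below, against 11.9% and 10.1% of all genes tested. At an unadjusted p under 0.05 limma had 1 higher and 5 lower in KO, against 7.05% and 7.25% of all genes tested. Together these were 22.2%, against 14.3% of all genes tested, and 0 passed the adjusted threshold. Sst, the somatostatin gene of Lhx6-derived cells, was at 433, 277 and 237 FPKM in WT against 210.2, 189 and 219 in KO, with no overlap (limma adjusted p = 0.331). Npy was at 93.8, 67.6 and 101 and 91.9, 94.2 and 115, and Cck at 212, 227 and 172 and 222, 213 and 173. Pvalb, chosen after its values were seen, was at 5.19, 32.6 and 44.3 in WT against 32.5, 57.5 and 46.8 in KO, so that WT1, which was lowest for Satb1, was also lowest for Pvalb, while Lhx6 in WT1 lay inside the range of the other libraries. Over the 13 marker lists used here, 137 distinct genes were tested and 0 passed in limma or voom, with 36 (26.3%) and 40 (29.2%) at an unadjusted p under 0.05, above the 14.3% and 14.4% over all genes tested.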

How the data were processed

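The authors deposited FPKM per Ensembl gene for 6 libraries (3 WT, 3 KO), with gene name, position and length per the file headers; the sources used here name no aligner, counter or annotation. Per the labels' protocols, a Qiagen kit gave the RNA and a SMARTER mRNA kit the libraries. FPKM times length gave whole multiples of 1 step for 100% of values above 0 (tolerance 0.01 reads); recovered reads entered only voom. The 13087 genes whose FPKM averaged at least 1 were fitted on log2(FPKM + 1), which understates changes of low genes, with limma 3.58.1 (R 4.3.3; linear model, empirical Bayes with variance trend, two-sided). Benjamini-Hochberg adjustment covered all of them, with a threshold of 0.05. The test was tried on simulated data.

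The 9 genes and all lists were chosen with earlier results of these data known. Named by rule were the 9 genes, Cntnap4, the 3 genes most alike to each, 8 other lineage regulators of smallest p, tested Erbb4 pathway and GABA genes, and up to 4 of highest mean FPKM from each of the marker lists; some genes that this rule takes are not reported here, though counts over lists include them; further genes were chosen after their values were seen, namely neighbours and paralogues of the 9, C1ql2, Stxbp6, Rspo2, Nkx2-1 and those said so in the text. Deviations of same-numbered libraries had r = 0.17, 0.15 and 0.33 across genes for numbers 1, 2 and 3. Differently numbered ones had -0.38 to 0.28, and the highest, WT2 with KO1, was above the values for numbers 1 and 2. These values do not settle whether the numbers pair the libraries. The main fit used no pairing, and a fit with the replicate block was an alternative. The others were a pseudocount of 0.1, filters at 0.5 or none, a common sum, quantile normalization, no variance trend, sample weights, voom, each library left out, and both libraries numbered 3 left out.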

Additional observations from a re-analysis of the deposited data

How the results depend on the processing

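No lineage gene and none of the other lineage regulators was called under any of the 16 alternatives, and Nr2f2, Satb1, Erbb4 and Sox6 kept their sign in all of them. The count over all genes, 1, became 0 with no filter, a filter at 0.5, quantile normalization, no variance trend, the replicate block, or both libraries numbered 3 left out, and 0 to 9 with 1 library left out (9 without WT3); the cause was not tested. The replicate block changed no call of a lineage gene: its smallest adjusted p was 0.221 for Nr2f2. Lineage genes with no overlap numbered 1, against 5 with both libraries numbered 3 left out and 1 to 4 with 1 library left out (4 without WT3), where fewer samples make separation easier: over all genes tested the share was 22.0% at first, 53.1% with both libraries numbered 3 left out, and 27.0% to 38.4% with 1 left out (38.4% without WT3). Near 0, signs turned. Dlx1 was at -0.018 with a common sum and with voom, -0.084 with sample weights and -0.24 without both libraries numbered 3, and ranged from -0.17 to 0.10 with 1 library left out. Prox1 was at -0.013, -0.021, -0.049 and -0.061 under the same settings and ranged from -0.046 to 0.067. Dlx2 was at -0.015 with sample weights and -0.11 without both libraries numbered 3, ranging from -0.0094 to 0.15. Lhx6 was at -0.035 with sample weights and ranged from -0.047 to 0.15, and Dlx5 from -0.30 to 0.060. The 95% intervals of the 7 genes other than Nr2f2 and Satb1 start at -0.63 (Dlx5) to -0.035 (Erbb4) and end at 0.19 (Sox6) to 0.80 (Erbb4) on the log2 scale.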
